A study of Arabidopsis thaliana with 48 samples.

Results

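Expansins and xyloglucan endotransglucosylase/hydrolases (XTHs) are cell wall proteins of growing plant tissue, and their transcripts were compared between acc1-5 and wild-type (WT) Arabidopsis thaliana seedlings. The 49 genes are 16 of the alpha-expansin genes (EXPA) and the 33 genes XTH1 to XTH33, out of 33553 genes in the deposited tables. EXPA7, EXPA12, EXPA18, EXPA19 and EXPA21 to EXPA26 are not among the 16 and were counted with the expansins outside the 49 genes. They were chosen by gene family with the acc1-5 to WT comparison of these tables already known, so counts and medians over the 49 genes are given as a description, without a test of the list. Where a gene had several transcripts, the one most abundant on average over both genotypes stands for it.

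The RNA libraries were 3 of acc1-5 seedlings and 3 of WT seedlings, all of the Col-0 ecotype, 12 days old and grown on plates in days of 16 h light and 8 h dark. ACC1 encodes the cytosolic acetyl-CoA carboxylase, and acc1-5 is an allele of it. The same spray protocol (solvent or estradiol) stands with each of the 48 samples, which leaves it unclear if it was used on seedlings for RNA. The chromatin data, 42 of the libraries, were not used here. The tables hold 1 level per genotype in FPKM (a fragment count divided by transcript length and by library size), with a lower and an upper bound, so no spread between libraries can be shown. The labels do not say if libraries of a genotype came from separate cultures, so the authors' q-values may rest on technical spread alone. Sequencing depth is unknown. ACC1 (AT1G36160) itself stood at 33.4 FPKM in acc1-5 seedlings (bounds 21.4 to 45.4) and 33.1 FPKM in WT seedlings (21.6 to 44.7), and since the labels do not say what acc1-5 does to the transcript this is no check of the genotype.

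A plant cell enlarges when its wall yields to turgor. In the primary wall, cellulose microfibrils are held together in part by xyloglucan, a branched hemicellulose. Alpha-expansins loosen the wall at acid pH without cutting the polymers, whereas XTHs cut a xyloglucan chain and join the cut end to another chain or, in some members, to water. Both are large families whose members are used in different organs and cell types, such as hypocotyls, leaf cells, root hairs and the root elongation zone, and many respond to auxin, brassinosteroid, gibberellin, light or touch.

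Among these genes, a set of XTHs with low levels in WT seedlings was several-fold higher in acc1-5 seedlings, while XTH22 and XTH9, which ranked 1 and 4 among the XTHs of WT, and XTH6 were lower. XTH12, XTH14, XTH13, XTH26, XTH20 and XTH11 were 4.003 to 8.35 times their WT level. XTH5, XTH10, XTH17, XTH25 and XTH29 also had low levels in WT and were not called. XTH6, XTH22 and XTH9 were at 0.320, 0.356 and 0.397 of their WT level. Among the 16 alpha-expansins, the called genes were EXPA14 (3.08-fold), EXPA10 (2.20-fold), EXPA9 (1.84-fold), EXPA20 (1.83-fold) and EXPA1 (1.54-fold), all higher, and EXPA5, lower at 0.581 of its WT level. A gene is called here where the authors tested it and their q-value was under 0.05. By that rule 15 of the 44 tested genes rose and 5 fell, and 24 were not called, in the authors' deposited table. Of all 20509 tested genes, 10.9% were called higher and 9.04% lower, 19.9% in all. The other 5 genes, EXPA2, XTH1, XTH2, XTH3 and XTH21, were not tested, and all of them had under 0.5 FPKM in both genotypes.

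The calls differ in strength. Of the 20 called genes, 13 held q = 7.46e-04, the smallest q-value in the authors' deposited table, 10 of them higher and 3 lower in acc1-5. The bounds of the genotypes did not overlap for 14 of the 44 tested genes, against 6.88% of all tested genes. Of these 14, 13 were called and 1 was not. At least 2-fold calls numbered 10 higher and 3 lower among the 44 tested genes, against 11.0% of all tested genes in either direction. The median log2 fold change in the authors' deposited table was 0.38 for the 44 tested genes and -0.01 for all tested genes. The half-width of the bounds was at the median 40.3% of the level in acc1-5 and 41.7% in WT, among tested genes of the families with at least 1 FPKM in that genotype.

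**Figure D1:**
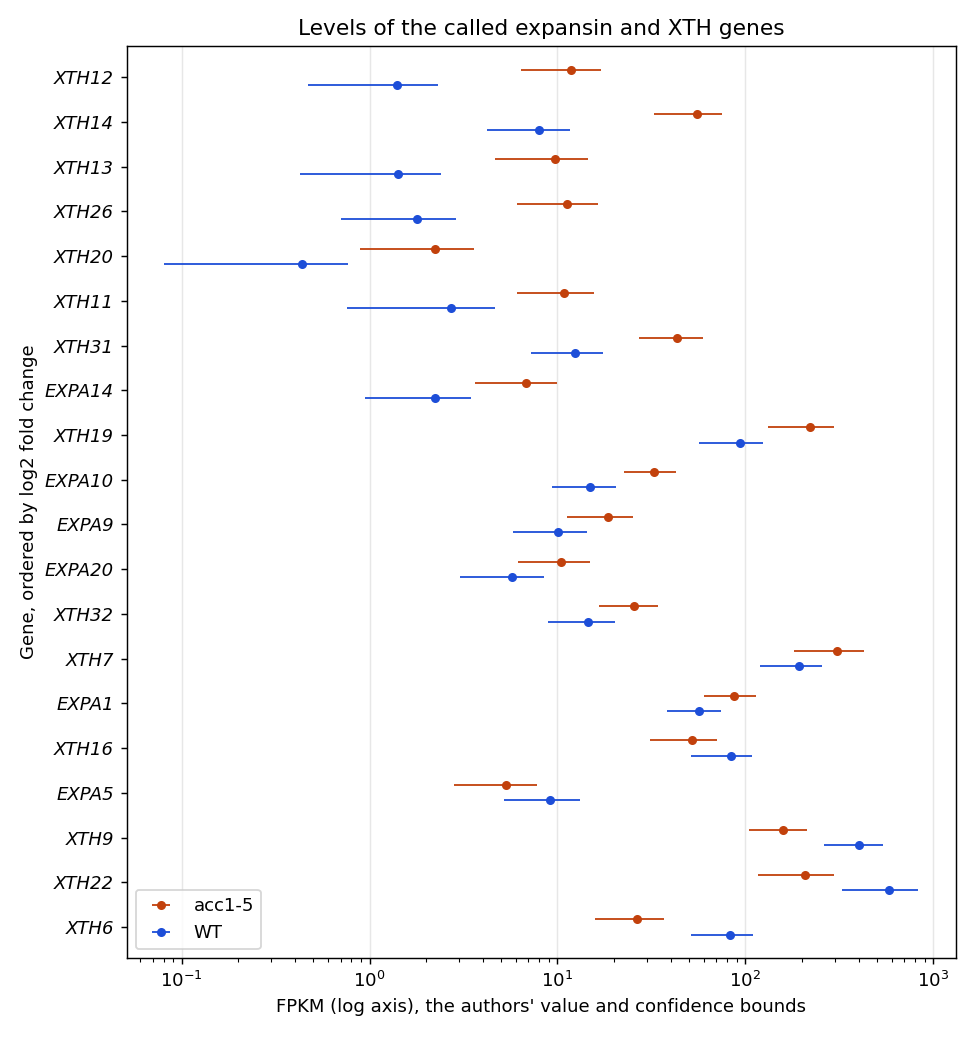
Levels of the 20 called genes on a log axis of FPKM, with acc1-5 above WT for each gene, ordered by log2 fold change with the largest rise on top. Points are the authors' values and lines their bounds. The bounds of acc1-5 and WT are apart for XTH12 at 11.7 and 1.405 FPKM, and overlap for EXPA1 at 86.7 and 56.3 FPKM.

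Whole seedlings hold roots and shoots, and a lower or higher share of a cell type cannot be told apart here from less or more RNA of a gene per cell. Markers of root cells were higher in the same acc1-5 libraries. All 6 markers of root hair cells (EXPA7, EXPA18, COBL9, PRP3, LRX1 and RSL4) rose, and their summed level was 107 FPKM in acc1-5 and 12.1 FPKM in WT. Of 8 markers of the root endodermis, 6 rose, CASP4 was not called and CASP5 was not tested, with a summed level of 46.8 FPKM in acc1-5 and 11.1 FPKM in WT. Of 8 markers of leaf mesophyll, LHCB1.1, LHCB2.3 and LHCB4.2 fell and the other 5 were not called, with a summed level of 10035 FPKM in acc1-5 (summed bounds 2331 to 17732) and 17616 FPKM in WT (2876 to 41835). RBCS1A, which was not called, made up 5028 FPKM of the sum in acc1-5 and 9403 FPKM in WT, and the bounds of the genotypes overlapped for all 8 leaf markers. Summed bounds here add the bounds of single genes and are not bounds of the summed level. No marker of the 3 lists was at 0 in either genotype. Among all tested genes, 10.9% were called higher and 9.04% lower. The part of these shifts in the changes of expansins and XTHs was not tested.

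XTHs of group II, the largest of the 3 groups of the family's tree, held most of the large rises. Rises were called for 6 of its 14 tested members and falls for 2, against 10.9% and 9.04% of all tested genes. The other 6 were not called, and the median log2 fold change of the 14 was 0.42 in the authors' deposited table. XTH14 (AT4G25820) and XTH26 (AT4G28850), which are known from roots and root hairs, had 55.0 and 11.2 FPKM in acc1-5, against 7.95 and 1.79 FPKM in WT. XTH14 was thus 6.92-fold and XTH26 6.28-fold higher, with bounds that did not overlap (32.7 to 75.2 in acc1-5 and 4.203 to 11.7 FPKM in WT for XTH14). XTH12 (AT5G57530) and XTH13 (AT5G57540) had 11.7 and 9.70 FPKM in acc1-5, and 1.405 and 1.409 FPKM in WT, rises of 8.35-fold and 6.88-fold. Root hair markers, with a summed level of 107 FPKM in acc1-5 and 12.1 FPKM in WT, moved the same way as these 4 genes. A link between them was not tested.

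The close relatives XTH17 to XTH20 (AT5G48070), known from roots, were not all called. XTH19 (AT4G30290) had 219 FPKM in acc1-5 (bounds 132 to 297) and 93.1 FPKM in WT (56.9 to 124), a 2.36-fold rise of one of the abundant transcripts of the family. XTH20 had 2.24 FPKM in acc1-5 (0.889 to 3.59) and 0.438 FPKM in WT (0.0808 to 0.767), a 5.10-fold rise at a low level. XTH18 (AT4G30280), next to XTH19 on chromosome 4, had 55.9 FPKM in acc1-5 and 42.1 FPKM in WT, and was not called (q = 0.142 in the authors' deposited table). XTH17 had 3.58 FPKM in acc1-5 and 2.65 FPKM in WT, also not called (q = 0.547 in the authors' deposited table). XTH21, another gene known from roots, had 0.460 FPKM in acc1-5 (0.0951 to 0.808) and 0.0221 FPKM in WT (0 to 0.143) and was not tested. The 4 relatives and XTH21 all had the higher value in acc1-5, and with XTH18 and XTH17 the bounds of the genotypes overlapped widely. Whether the rises of XTH19 and XTH20 differ from the changes of XTH17 and XTH18 was not tested.

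Falls in group II were those of XTH22 (AT5G57560) and XTH16 (AT3G23730). XTH22, also called TOUCH 4 (TCH4), responds to touch, brassinosteroid and auxin. It fell to 208 FPKM in acc1-5 (116 to 298), against 582 FPKM in WT (329 to 827), where it was the highest of all 33 XTHs. In acc1-5 it ranked 5 in the family. XTH16 fell to 52.1 FPKM in acc1-5, against 84.0 FPKM in WT, with overlapping bounds of 31.2 to 70.5 and 51.6 to 109. XTH15, a shade-responsive gene, had 24.2 FPKM in acc1-5 and 32.2 FPKM in WT, and XTH25 had 1.15 FPKM in acc1-5 and 2.01 FPKM in WT, and neither was called (q = 0.205 and 0.265 in the authors' deposited table). XTH24 (AT4G30270), known as the meristem gene MERI5, stood at 586 FPKM in acc1-5 and 571 FPKM in WT, and XTH23 at 17.9 FPKM in acc1-5 and 19.3 FPKM in WT. For XTH24 and XTH23 the levels were nearly alike, but the bounds are wide enough to hold a sizeable difference (330 to 834 FPKM in acc1-5 and 326 to 814 FPKM in WT for XTH24).

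Group I was divided, with 2 members higher, 2 lower and 4 not called among its 8 tested genes, and a median log2 fold change of -0.07 in the authors' deposited table. The shares called among all tested genes were 10.9% higher and 9.04% lower. XTH9 (AT4G03210), a gene of shoot apices and elongating stems, fell to 159 FPKM in acc1-5 (105 to 214), against 402 FPKM in WT (262 to 542). XTH6 (AT5G65730) fell to 26.6 FPKM in acc1-5 (15.9 to 36.8), against 83.1 FPKM in WT (51.1 to 109), the lowest ratio of any tested gene of the families. XTH4 (AT2G06850), which encodes the endoxyloglucan transferase EXGT-A1, had 356 FPKM in acc1-5 and 536 FPKM in WT, and missed the threshold with q = 0.0665 in the authors' deposited table. These 3 genes had the lower value in acc1-5, as did all 8 leaf markers, of which 3 were called. EXPA1 and EXPA10, known from leaves, went the other way and were called higher, at 1.54-fold and 2.20-fold. A link of any of these changes to the leaf markers was not tested.

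Rises in group I were those of XTH7 (AT4G37800) and XTH11 (AT3G48580). XTH7 had 308 FPKM in acc1-5 (182 to 428) and 194 FPKM in WT (119 to 256), a 1.59-fold rise with overlapping bounds. XTH11 had 10.8 FPKM in acc1-5 (6.12 to 15.6) and 2.71 FPKM in WT (0.759 to 4.66), a 4.003-fold rise. The minor XTH11 transcript AT3G48580.2 went the other way, with 0.110 FPKM in acc1-5 and 0.621 FPKM in WT, and was not called. Summed over transcripts, the log2 fold change of XTH11 was 1.72, against 2.00 for its main transcript. The other 3 tested genes of the group, XTH5, XTH8 and XTH10, had 6.40, 18.005 and 2.42 FPKM in acc1-5, against 4.79, 13.8 and 3.50 FPKM in WT, and were not called. XTH1 and XTH2 were listed at 0 in both genotypes, and XTH3 had 0.131 FPKM in acc1-5 and was listed at 0 in WT.

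In group III, with 7 tested genes, the 2 called ones were XTH31 (AT3G44990) and XTH32 (AT2G36870), which both rose (10.9% of all tested genes were called higher). They form a branch of the family whose members act mainly as hydrolases, cutting xyloglucan without rejoining it, as shown for XTH31. XTH31 had 43.5 FPKM in acc1-5 (27.02 to 59.8) and 12.4 FPKM in WT (7.26 to 17.5), a 3.51-fold rise with bounds apart. XTH32 had 25.4 FPKM in acc1-5 (16.7 to 34.1) and 14.5 FPKM in WT (8.85 to 20.2), a 1.75-fold rise with overlapping bounds. The other 5 genes of the group lay between 0.917 and 1.30 times their WT level and were not called. Among them XTH27 (AT2G01850) had 182 FPKM in acc1-5 and 199 FPKM in WT, XTH28, needed for stamen filament growth, 64.8 FPKM in acc1-5 and 70.3 FPKM in WT, and XTH33, a member held at the plasma membrane, 19.2 FPKM in acc1-5 and 14.7 FPKM in WT.

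**Figure D2:**
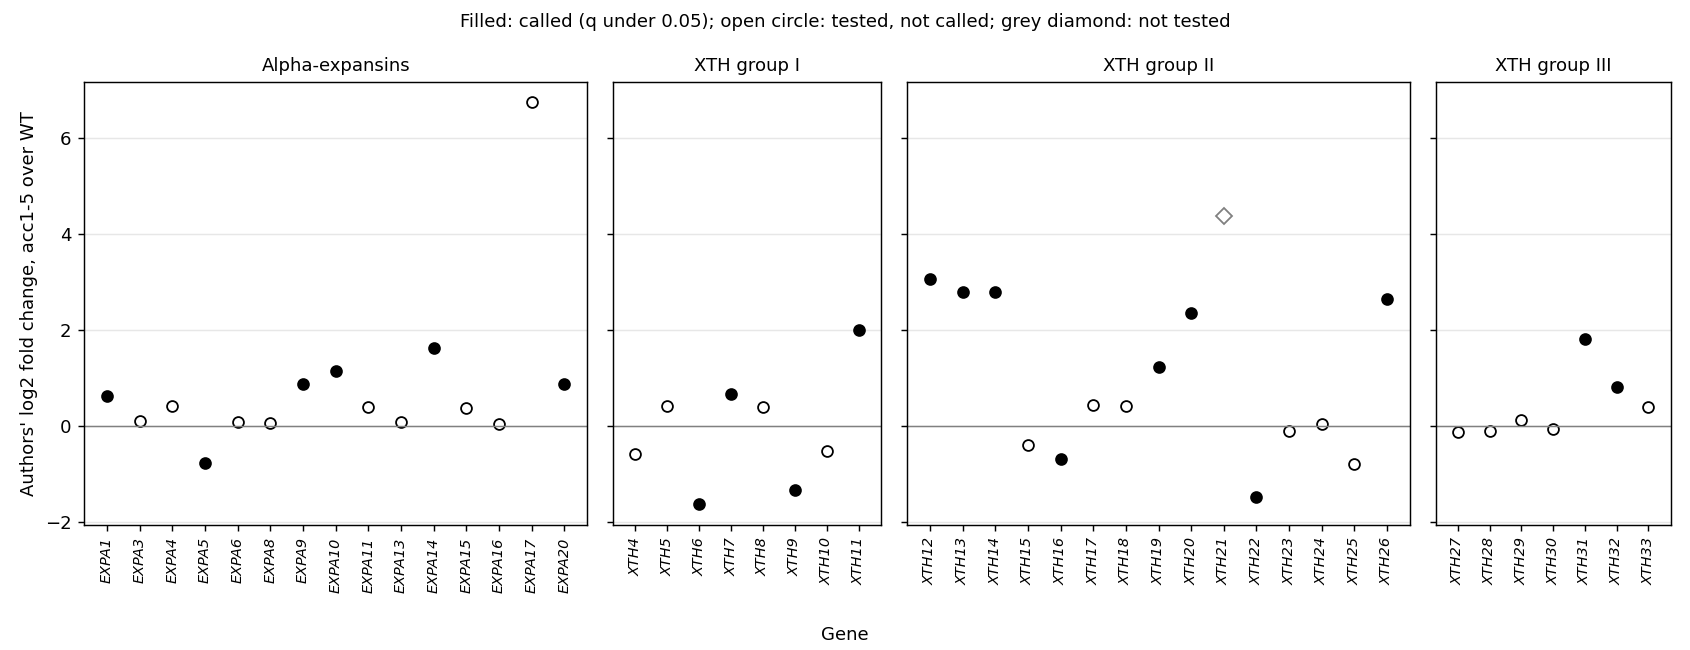
The authors' log2 fold change, acc1-5 over WT, of the 45 genes with a level above 0 in both genotypes, in 4 panels for the alpha-expansins and XTH groups I, II and III. Filled circles are called genes, open circles tested genes that were not called, and the grey diamond is XTH21, which was not tested. The rises of group II reach 3.06 for XTH12, and the highest point, EXPA17 at 6.75, was not called.

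With these opposite changes, the order of the XTHs by level was different in the genotypes. In acc1-5 the 5 highest were XTH24, XTH4, XTH7, XTH19 and XTH22, which held 67.0% of the summed FPKM of the family. In WT the 5 highest were XTH22, XTH24, XTH4, XTH9 and XTH27, which held 76.0%. XTH22 alone was 8.30% of the family's sum in acc1-5 and 19.3% in WT, XTH9 6.37% in acc1-5 and 13.3% in WT, XTH19 8.77% in acc1-5 and 3.09% in WT, and XTH7 12.3% in acc1-5 and 6.43% in WT. The summed level of all 33 XTHs was 2502 FPKM in acc1-5 (summed bounds 1476 to 3483) and 3014 FPKM in WT (1786 to 4190). The ratio was 0.830. The summed bounds overlapped widely, but are not bounds of the summed level. Neighbours in these orders mostly do not differ beyond their bounds: in WT the bounds of XTH22, XTH24, XTH4 and XTH9 all overlapped one another, and in acc1-5 those of XTH24, XTH4 and XTH7 did.

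Several XTHs lie close together in the genome, and neighbours did not always share a call. Taking members within 10 kb of each other, 11 XTHs fell into 4 arrays (positions on TAIR10). On chromosome 5, from 23300321 to 23308282, XTH12 and XTH13 rose 8.35-fold and 6.88-fold, XTH25 was at 0.573 of its WT level and not called, and XTH22 fell to 0.356 of its WT level. The gap between XTH12 and XTH13 is 1390 bases and holds 1 other listed gene. The gap between XTH13 and XTH25 is 838 bases, and that between XTH25 and XTH22 is 708 bases. On chromosome 4, XTH14 (13130297 to 13131788) rose 6.92-fold, while XTH23, which ends 412 bases before it, had 0.927 of its WT level. Further along the same chromosome, from 14819192 to 14830016, XTH24 and XTH18 had 1.03 and 1.33 times their WT level and were not called, and XTH19 rose 2.36-fold. XTH1 and XTH2 form the remaining array on chromosome 4 and were listed at 0. Differences between neighbours were not tested, and reads of closely related copies may have been assigned to the wrong member, which the tables do not show.

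**Figure D3:**
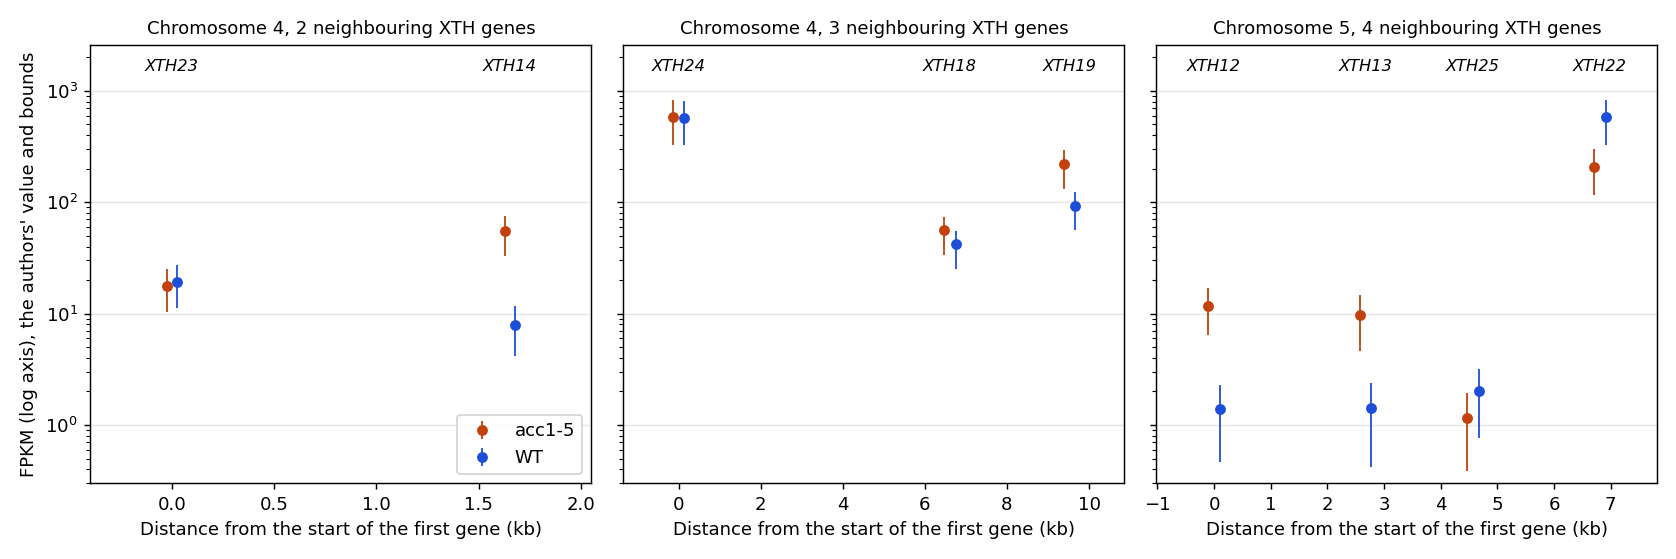
FPKM on a log axis of the 9 expressed XTHs in 3 arrays, plotted against the distance of each gene from the start of the first gene in kb, with acc1-5 left of WT. Points are the authors' values and lines their bounds. On chromosome 5 the acc1-5 points lie above WT for XTH12 and XTH13 and below WT for XTH25 and XTH22.

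The called alpha-expansins among the 16 lay between 0.581 and 3.08 times their WT level. Of 15 tested genes, 5 rose, 1 fell and 9 were not called, against 10.9% called higher and 9.04% lower among all tested genes. The higher value was in acc1-5 for 14 of the 15, against 10116 of the 20509 tested genes. The median log2 fold change of the 15 was 0.39 in the authors' deposited table. The summed level of the 16 genes was 418 FPKM in acc1-5 (summed bounds 266 to 564) and 321 FPKM in WT (200 to 436). These summed bounds overlapped, but are not bounds of the summed level. EXPA1 (AT1G69530), a gene of leaves and guard cells, rose to 86.7 FPKM in acc1-5 (59.9 to 114), against 56.3 FPKM in WT (38.1 to 74.5), and was the highest of the 16 in acc1-5. EXPA10 (AT1G26770), known from leaf growth, had 32.8 FPKM in acc1-5 (22.6 to 42.9) and 14.9 FPKM in WT (9.38 to 20.4), bounds that lie apart.

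EXPA14 (AT5G56320) had 6.84 FPKM in acc1-5 (3.65 to 9.94) and 2.22 FPKM in WT (0.942 to 3.47), the largest rise among the 6 called genes of the 16 alpha-expansins, and its bounds were apart as well. EXPA9 (AT5G02260) had 18.6 FPKM in acc1-5 and 10.1 FPKM in WT, and EXPA20 (AT4G38210) 10.49 FPKM in acc1-5 and 5.72 FPKM in WT. For EXPA9 and EXPA20 the bounds overlapped. EXPA5 (AT3G29030), a brassinosteroid-responsive gene of shoots, fell to 5.33 FPKM in acc1-5 (2.81 to 7.81), against 9.17 FPKM in WT (5.17 to 13.2), with q = 0.0298 in the authors' deposited table, the largest q-value among the called genes.

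EXPA17 (AT4G01630), known for its part in lateral root emergence, had the widest ratio among the genes above 0 in both genotypes and was not called. It had 2.68 FPKM in acc1-5 (0.944 to 4.37) and 0.0249 FPKM in WT (0 to 0.177), bounds that do not overlap, with q = 0.411 in the authors' deposited table. EXPA2, a gene of seed germination, had 0.0970 FPKM in acc1-5 and was listed at 0 in WT, and was not tested.

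The abundant alpha-expansins EXPA6 (AT2G28950), EXPA3 (AT2G37640) and EXPA8 (AT2G40610) had close values in both genotypes and were not called. Their bounds are wide enough to hold a sizeable difference (38.5 to 80.2 FPKM in acc1-5 and 36.6 to 76.2 in WT for EXPA6). EXPA6 had 59.9 FPKM in acc1-5 and 56.9 FPKM in WT, EXPA3 47.4 FPKM in acc1-5 and 44.1 FPKM in WT, and EXPA8 35.6 FPKM in acc1-5 and 34.2 FPKM in WT. EXPA4 and EXPA11 had 49.7 and 31.5 FPKM in acc1-5, against 37.2 and 24.1 FPKM in WT, and were not called (q = 0.118 and 0.215 in the authors' deposited table). EXPA13, EXPA15 and EXPA16 were at 1.02 to 1.29 times their WT level and were not called.

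Expansins outside the 49 genes gave few further values. Of 20 such genes 10 were tested, of which 4 rose, 0 fell and 6 were not called in the authors' deposited table, where 5 of the 10 had an unadjusted p under 0.05. The shares called among all tested genes were 10.9% higher and 9.04% lower. EXPA7 and EXPA18, the root hair expansins that also stand among the markers above, had 20.1 and 14.7 FPKM in acc1-5, against 1.44 and 1.92 FPKM in WT. EXPA12 had 1.85 FPKM in acc1-5 and 0.194 FPKM in WT, and EXLB1, an expansin-like gene, 30.1 FPKM in acc1-5 and 19.8 FPKM in WT. The beta-expansin gene EXPB3 had 13.95 FPKM in acc1-5 and 19.9 FPKM in WT and was not called.

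The polymers on which these proteins act are made by genes of other families. Of 16 tested genes of xyloglucan synthesis and trimming, 2 rose, 1 fell and 13 were not called, with a median log2 fold change of 0.02 in the authors' deposited table. The 3 calls are 18.8% of the list, near the 19.9% called among all tested genes. CSLC12, a xyloglucan backbone synthase gene, had 2.91 FPKM in acc1-5 and 0.947 FPKM in WT, while its more abundant relative CSLC4 had 54.0 FPKM in acc1-5 and 64.1 FPKM in WT and was not called. AXY4, which acetylates xyloglucan, rose to 19.1 FPKM in acc1-5, against 12.5 FPKM in WT, and AXY8, a fucosidase that trims xyloglucan side chains, fell to 21.0 FPKM in acc1-5, against 30.2 FPKM in WT. Of 12 tested genes of cellulose synthesis 0 were called by the authors' Cuffdiff comparison, where 2 had an unadjusted p under 0.05, and their log2 fold changes lay between -0.68 and 0.21 in the authors' deposited table. The cellulose synthase genes of primary walls CESA1, CESA3 and CESA6 had 105, 129 and 73.3 FPKM in acc1-5, against 90.7, 133 and 68.3 FPKM in WT. Whether the share of calls differs between these lists and the expansins or XTHs was not tested.

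**Figure D4:**
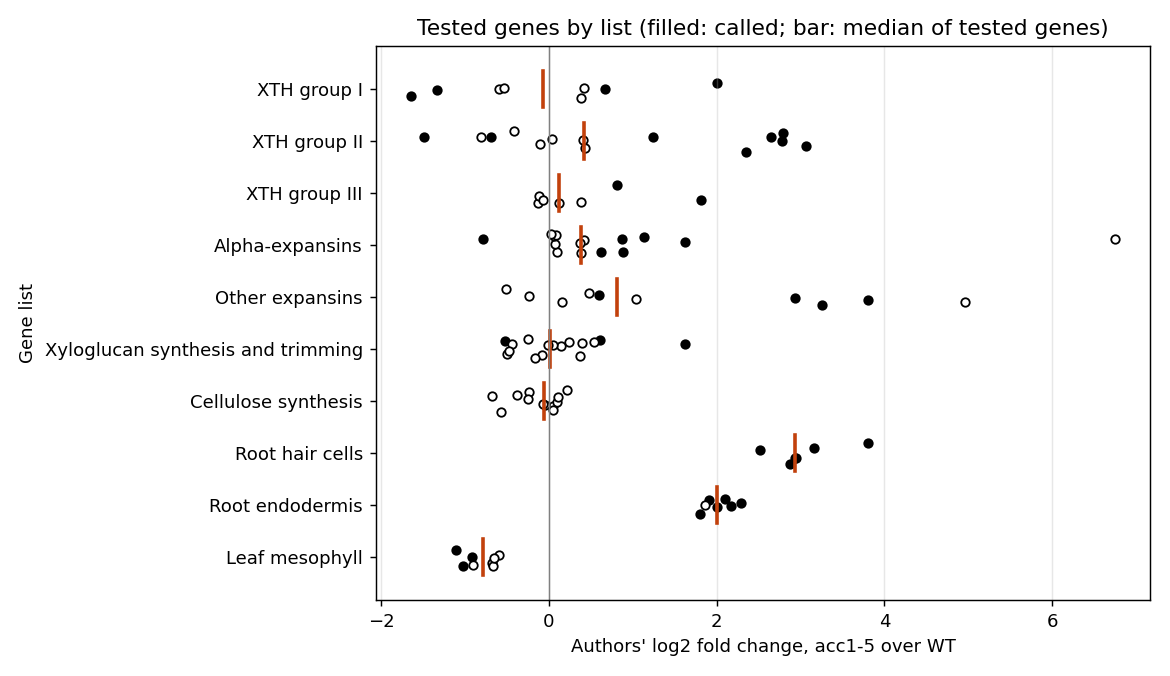
The authors' log2 fold change, acc1-5 over WT, of the tested genes of each list, with filled points for called genes, open points for genes not called, and a bar at the median of the list. Points of XTH group II spread from -1.49 to 3.06, those of cellulose synthesis from -0.68 to 0.21, and those of root hair markers from 2.52 to 3.81.

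Transcript forms did not add calls. Of the 49 genes 5 had more than 1 transcript listed, 59 transcripts in all, and none of the minor transcripts was called. Some minor transcripts of EXPA1 and all those of XTH32 were not tested, so they could not be called. The main transcript of EXPA1 held 96.3% of the gene's FPKM in acc1-5 and 97.6% in WT, and that of XTH9 held 99.95% in acc1-5 and 99.7% in WT. XTH11 differed most in this respect, with 99.0% of its FPKM in the main transcript in acc1-5 and 81.3% in WT, but the bounds of its minor transcript, from 0 to 1.13 FPKM in acc1-5 and from 0 to 2.36 FPKM in WT, overlapped.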

How the data were processed

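RNA-seq levels of 3 acc1-5 and 3 WT seedling libraries were used. Per the submitters' processing notes, TopHat 1.4.0, Bowtie, Cufflinks 2.1.1 and Cuffdiff 2.1.1 were run on TAIR10. The authors deposited FPKM values, 1 per genotype with bounds of unstated confidence level, and how libraries were combined is not given in the sources used here. Per the file headers, a second table holds the log2 of acc1-5 over WT FPKM, a p-value, a q-value and a test statistic (a score, not used). Columns headed ACC1 were taken as acc1-5, since no other mutant has RNA samples. Recomputing the Benjamini-Hochberg adjustment over the 25307 tested transcripts gave the deposited q-values. Low FPKM values were mostly not whole multiples of a step (18.2% in acc1-5 and 15.5% in WT within 5%), so no count test was run.

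Starts were shifted by 1 base to 1-based positions. Gene symbols were matched to RefSeq (TAIR10.1) for all 49 genes. Transcript lengths in bases were taken as deposited. The members, the lists and the rule for named genes (all called members, the 8 highest of each family, the 2 largest changes not called per family, array neighbours, and up to 4 called genes per other list, with further genes added after their values were seen) were chosen with earlier results of these data known. No sequences were used. Counting and adjustment were tested on simulated data (Python 3.11.15, pandas 2.3.3).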

Additional observations from a re-analysis of the deposited data

How the results depend on the processing

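Limiting calls to at least 2-fold left 3 genes lower in acc1-5, 2 alpha-expansins higher and 0 lower. With the authors' q under 0.01, 3 alpha-expansins were higher and 0 lower, while 10 XTHs stayed called higher and 4 lower. Under that limit, chosen after seeing the data for the other lists, 2 other expansins were higher, and 1 gene of xyloglucan synthesis was higher and 0 lower. Adjusting the authors' p-values over 1 transcript per gene changed no count of the 49 genes. Requiring a mean of at least 1 FPKM could not change one, since the lowest mean of a called member was 1.34 FPKM (XTH20). With a pseudocount of 1 FPKM the median log2 fold change was 0.35 for all tested members, 0.37 for alpha-expansins and 0.33 for XTHs, and with 0.1 FPKM it was 0.38 for alpha-expansins. Subtracting the median of all tested genes gave 0.39 for members and 0.39 for XTHs. Adjustment over genes changed the call of none of the 33 single members it was computed for, and summing transcripts turned the sign of no called member among them. A pseudocount cannot turn a sign, and neither it nor summing gives a q-value. No paired analysis was possible because the tables hold 1 value per genotype, so leaving out single libraries was not run either. Values of EXPA2, EXPA17, XTH1 to XTH3, XTH20, XTH21 and XTH29 are limited by their level, under 1 FPKM in WT, at an unknown depth.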
